A study of Mus musculus with 1 sample.

Results

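The 10 genes described here encode proteins of the smooth muscle contractile apparatus, namely Acta2, Tagln, Tpm1, Tpm2, Myh11, Actg2, Cnn1, Myl9, Des and Lmod1. They were taken by gene symbol from the 22631 features of 1 single-cell library, and each matched 1 feature that was detected. The library was made from dissociated fetal testes of control mice at embryonic day 14.5, pooled from 12 controls, so there was 1 sample and no replicate. The paper counts these 12 as testes, so the number of fetuses is not known. The labels call the genotype WT, and the methods name fetuses homozygous for the conditional (loxP-flanked) Nr5a1 L2 allele, on a mixed C57BL/6 and 129/SvPass background, without the Cre transgene. The methods text also names embryonic day 13.5, which the label does not. The genes were compared between peritubular myoid (PTM), perivascular, coelomic epithelium and interstitial cells. Each value is a count of unique molecular indices (UMIs), one for each captured messenger RNA molecule, and protein was not measured.

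In smooth muscle and related cells, actin and myosin filaments slide past each other when the regulatory light chain of myosin is phosphorylated. In the fetal testis, PTM cells flatten around the cords formed by Sertoli cells and take up this machinery, whereas pericytes and vascular smooth muscle cells use it around vessels. Coelomic epithelium covers the surface of the gonad, and interstitial cells fill the space between the cords and include progenitors of other cell types. Acta2 (smooth muscle alpha-actin) and Actg2 (smooth muscle gamma-actin) form the thin filament, with the tropomyosins Tpm1 and Tpm2 wound along it. Myh11 is the smooth muscle myosin heavy chain and Myl9 a regulatory light chain. Tagln (transgelin) and Cnn1 (calponin) bind actin, Lmod1 (leiomodin) nucleates actin filaments, and Des (desmin) forms intermediate filaments.

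On GRCm38, also called mm10, GENCODE places these protein-coding genes as follows. The thin filament genes are Acta2 at chr19:34241090-34255590, Actg2 at chr6:83512905-83536265, Tpm1 at chr9:67022590-67049406 and Tpm2 at chr4:43514711-43523765, all on the minus strand. The myosin genes are Myh11 at chr16:14194535-14291372 on the minus strand and Myl9 at chr2:156775420-156781658 on the plus strand. Tagln lies at chr9:45929619-45936058 on the minus strand, and Cnn1 at chr9:22099216-22109630 on the plus strand of the same chromosome. Des lies at chr1:75360329-75368579 and Lmod1 at chr1:135324807-135368065, both on the plus strand. Reads were counted over whole genes from the 3 prime end of the transcript, so isoforms of Tpm1 and Tpm2 that muscle and other cells share were not told apart.

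Many smooth muscle genes carry the CArG box, the site bound by serum response factor, and the promoters of the members were searched for it because the members are described here as a group. RefSeq promoters (GRCm38.p6) were at hand for 7 of the 10 members. The motif is 10 bases long and reads the same on both strands, so 1 scan covers both. In the 250 bases before the RefSeq start, 1 of the 7 held a whole CArG box (Myl9), against 1.47% of 32851 promoters. With at most 1 letter off, 4 of the 7 held one (Acta2, Tpm1, Myl9 and Lmod1), against 18.6% of all promoters, and the windows of Tpm2, Cnn1 and Des held none. The stretches below are shown because these 4 held a match, and the capitals mark the matches; parts that GENCODE counts as exon were left out, except for the 30 bases around the Acta2 box. The whole box of Myl9 lies 161 to 152 bases before the start, the printed Acta2 match 84 to 75, the printed Tpm1 match 221 to 212, and the Lmod1 matches 189 to 180 and 164 to 155. Each of these genes held 2 matches, the second of Myl9 lying 99 to 90 bases before the start, that of Acta2 34 to 25 and that of Tpm1 80 to 71, the last pair outside the stretches printed. A match is a description of the letters and not evidence of binding.
Acta2, chr19:34255438-34255467, minus strand: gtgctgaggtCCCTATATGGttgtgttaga
Myl9, chr2:156775214-156775419, plus strand: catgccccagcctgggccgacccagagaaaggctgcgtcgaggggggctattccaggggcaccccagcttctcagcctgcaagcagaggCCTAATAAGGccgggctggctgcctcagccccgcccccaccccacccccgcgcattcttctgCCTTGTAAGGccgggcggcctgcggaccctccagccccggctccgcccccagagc
Tpm1, chr9:67049407-67049463, minus strand: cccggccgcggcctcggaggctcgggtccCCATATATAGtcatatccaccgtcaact
Lmod1, chr1:135324563-135324806, plus strand: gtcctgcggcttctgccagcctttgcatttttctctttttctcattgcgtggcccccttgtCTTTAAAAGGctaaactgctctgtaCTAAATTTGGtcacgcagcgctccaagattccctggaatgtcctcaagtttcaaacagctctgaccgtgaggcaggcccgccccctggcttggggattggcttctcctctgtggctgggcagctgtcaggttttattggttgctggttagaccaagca

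The library held 72595083 UMIs in 5421 barcodes, none of them in duplicate. After removal of 372 barcodes with fewer than 200 genes, 204 doublets and 1025 outliers, 3820 cells remained, with a median of 12100 UMIs. Cells were clustered with the 10 members and a list of other contractile genes left out, so that the members did not enter the grouping of the cells. Clusters were named from markers that are no members, and "-like" marks a name given in this way. The 4 classes compared were PTM-like (478 cells, median 11856.5 UMIs), perivascular-like (105 cells, 11007), coelomic epithelium-like (151 cells, 16157) and interstitial-like (1380 cells, 9246.5). Levels are CPM, for which the UMIs of a gene are summed over all cells of a class and scaled so that every class has the same total; their 95% intervals are exact Poisson. Ratios of CPM have an exact conditional binomial 95% interval, and all intervals cover counting error only. With 1 library, cells are not replicates, and no test was made.

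The labels of 2 classes rested on uneven evidence. Against all other cells, the PTM-like cluster lay nearer to the interstitial markers (mean log2 ratio 1.27) than to the PTM markers (0.89), and only within the stroma did the PTM list lead (0.11 against 0.05). Of the 9 PTM markers, 6 were higher in PTM-like than in interstitial-like cells beyond the counting interval and 2 were lower. Csrp1 (257.3 against 78.9 CPM), Actn1 (165.1 against 75.8) and Mylk, the kinase of the myosin light chain (218.8 against 107.3), were higher. The hedgehog target genes Ptch1 (41.8 against 252.4) and Gli1 (20.3 against 50.3) were lower. Acta2, Tagln and Myh11 were among the 10 leading genes of the cluster, although none had entered the clustering. Several PTM markers (Mylk, Smtn, Cald1, Actn1, Synpo2 and Csrp1) themselves belong to the actin cytoskeleton or the contractile apparatus, so higher contractile genes in the cluster given this name were in part fixed by how it was named.

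The perivascular-like class consisted of 55 cells that kept the name at a coarser clustering resolution (0.4 in place of 0.8) and 50 cells of which 49 then joined the PTM-like class. Rgs5, a pericyte gene, stood at 779.2 CPM in the 55 cells (504 UMIs) and at 6.69 in the 50 cells (4 UMIs), and Kcnj8 at 207.2 and 20.1. Notch3 (153.1 and 83.6 CPM) and Heyl (312.3 and 224.0) were found in both. The interstitial gene Wnt5a was at 30.9 CPM in the former and 337.7 in the latter. The groups are called the high-marker and the low-marker cells below, and the split was made after the data were seen. Depth was alike, with medians of 11325 and 10955 UMIs.

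**Figure D1:**
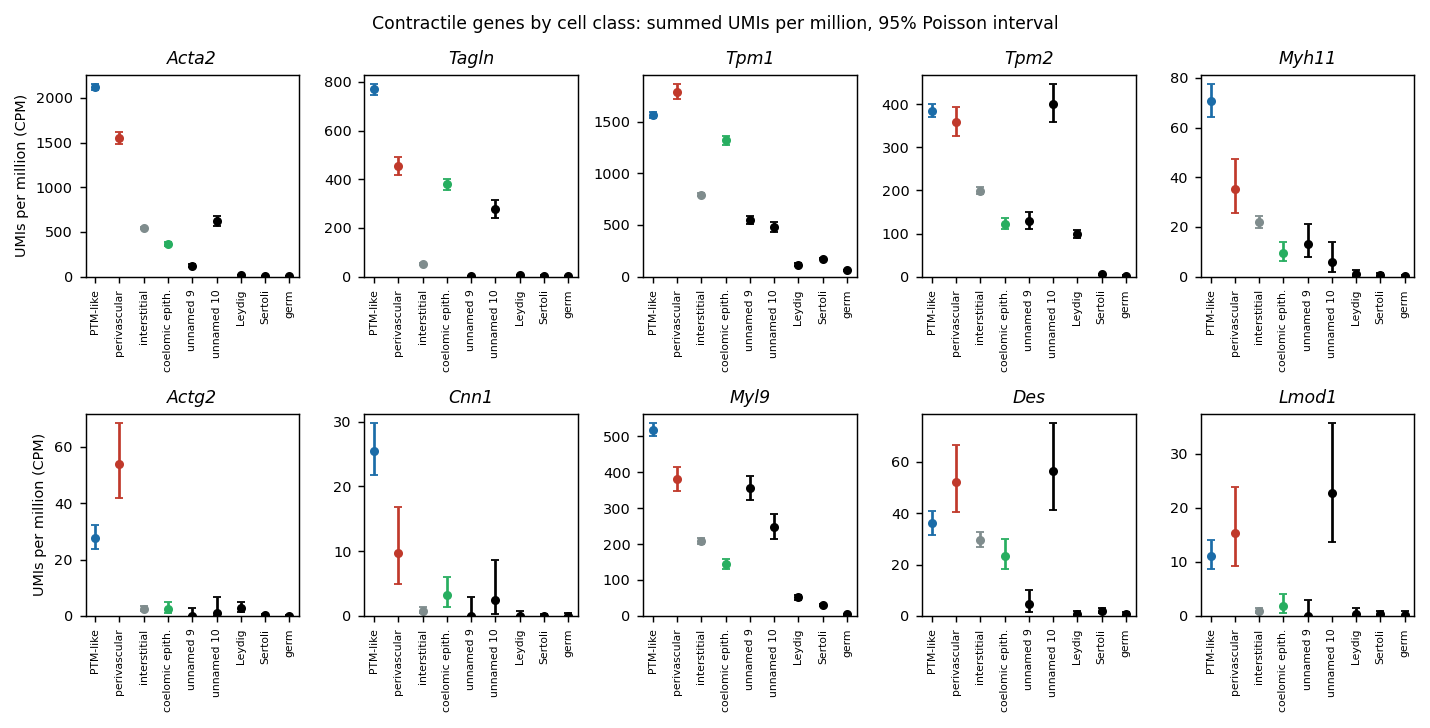
Level of each contractile gene (vertical axis, CPM, from 0, with a scale of its own in each panel) in the 4 classes compared and 5 others (horizontal axis). Points are summed UMIs of a class and bars exact Poisson 95% intervals, and PTM-like cells sit highest for Acta2, Tagln, Myh11, Cnn1 and Myl9.

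In PTM-like cells most contractile genes were more abundant than in interstitial-like cells, with the largest ratios for Cnn1, Tagln, Lmod1 and Actg2. Acta2, the thin filament actin, stood at 2119 CPM in PTM-like, 1551 in perivascular-like, 547.7 in interstitial-like and 365.9 in coelomic epithelium-like cells. These 4 intervals did not overlap. The PTM-like level was 3.87 times (3.76 to 3.98) the interstitial-like one. Actg2, the other smooth muscle actin, reached 27.8 CPM in PTM-like and 53.8 in perivascular-like cells, but 2.63 in interstitial-like and 2.45 in coelomic epithelium-like cells. The ratio of PTM-like to interstitial-like cells was 10.6 (7.36 to 15.6). The low levels of the latter classes lay near that of Leydig-like cells (2.80 CPM, 13 UMIs) and above that of Sertoli-like cells (0.16 CPM, 2 UMIs).

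Of the tropomyosins, Tpm1 was the most widely detected member. It stood at 1790 CPM in perivascular-like, 1562 in PTM-like, 1320 in coelomic epithelium-like and 794.6 in interstitial-like cells, and 97.9% or more of the cells in each held a UMI of it before thinning. Tpm2 stood at 385.1 CPM in PTM-like and 359.1 in perivascular-like cells, whose intervals overlapped, at 199.4 in interstitial-like and at 122.3 in coelomic epithelium-like cells. Both fell just short of the 2-fold limit between PTM-like and interstitial-like cells, at 1.97 (1.91 to 2.02) and 1.93 (1.83 to 2.04).

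The myosin genes differed in breadth. Myh11, the heavy chain, was at 70.7 CPM in PTM-like, 35.3 in perivascular-like, 21.9 in interstitial-like and 9.46 in coelomic epithelium-like cells, and the PTM-like level was 3.24 times (2.79 to 3.76) that of interstitial-like cells. Myl9, the light chain, was at 518.2 CPM in PTM-like, 379.9 in perivascular-like, 208.7 in interstitial-like and 145.1 in coelomic epithelium-like cells. Its PTM-like to interstitial-like ratio was 2.48 (2.36 to 2.61).

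Among the actin-binding proteins, Tagln set the classes furthest apart of the genes with many counts. It stood at 769.1 CPM in PTM-like, 453.0 in perivascular-like and 378.9 in coelomic epithelium-like cells, and at 53.2 in interstitial-like cells. The PTM-like level was 14.5 times (13.4 to 15.6) the interstitial-like one. Cnn1 was at 25.5 CPM in PTM-like, 9.64 in perivascular-like, 3.15 in coelomic epithelium-like and 0.80 in interstitial-like cells (11 UMIs), a PTM-like to interstitial-like ratio of 31.7 (17.3 to 64.8). Lmod1 was at 15.3 CPM in perivascular-like and 11.1 in PTM-like cells, with overlapping intervals, and at 0.88 in interstitial-like cells (12 UMIs). Its PTM-like to interstitial-like ratio was 12.6 (6.80 to 25.6).

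Des, the intermediate filament gene, differed least between PTM-like and interstitial-like cells. It was at 52.2 CPM in perivascular-like (40.3 to 66.5), 36.0 in PTM-like, 29.5 in interstitial-like and 23.5 in coelomic epithelium-like cells. In this order the interval of each class overlapped that of the next. Its PTM-like to interstitial-like ratio was 1.22 (1.04 to 1.44), the smallest of the 10.

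In all, 7 of 10 members were at least 2-fold higher in PTM-like than in interstitial-like cells and none 2-fold lower, where 5.82% of 12825 genes with at least 10 UMIs in both classes together were 2-fold higher and 7.55% lower. All 10 members passed that minimum. The median log2 ratio was 1.80 over the members and -0.03 over all genes. The 4 interstitial-like clusters were not alike: Acta2 was at 451.4, 944.4, 407.5 and 841.7 CPM in them, and Tagln at 40.0, 101.7, 27.7 and 163.7. The PTM-like level of Acta2 was at least 2.24 times, and that of Tagln at least 4.70 times, the level of each of them. Actg2, Cnn1 and Lmod1 were also past 2-fold against each, on few UMIs. Against the cluster with Acta2 at 944.4 CPM, Myh11 (1.58, 1.28 to 1.96) and Myl9 (1.95, 1.79 to 2.12) fell under 2-fold. Across the cell cycle calls of PTM-like cells, Acta2 was at 2088 CPM in G1, 1962 in S and 2315 in G2M cells. Actg2 was at 20.9, 19.0 and 44.8 CPM and Cnn1 at 23.4, 19.5 and 34.1. The G2M intervals of Acta2 (2250 to 2382) and Actg2 lay above those of G1 and S. The G2M interval of Cnn1 (26.6 to 43.1) overlapped G1 (17.7 to 30.5) and barely cleared S (14.0 to 26.4). The 24 of 478 cells with the most UMIs held 69.6% of Actg2 and 74.7% of Cnn1 UMIs. In perivascular-like cells G2M was not the highest: Acta2 was at 1762 CPM in G1, 1778 in S and 1069 in G2M cells. Actg2 was there at 114.7, 28.7 and 35.8 CPM. The intervals cover counting error and not the spread between cells, and no difference by phase was tested. Markers of other contractile cells were not higher in PTM-like cells: the 11 perivascular markers summed to 69.0 CPM (2 of 11 at 0) against 211.3 in interstitial-like cells, and the 7 skeletal muscle markers to 41.4 (4 of 7 at 0) against 72.7.

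**Figure D2:**
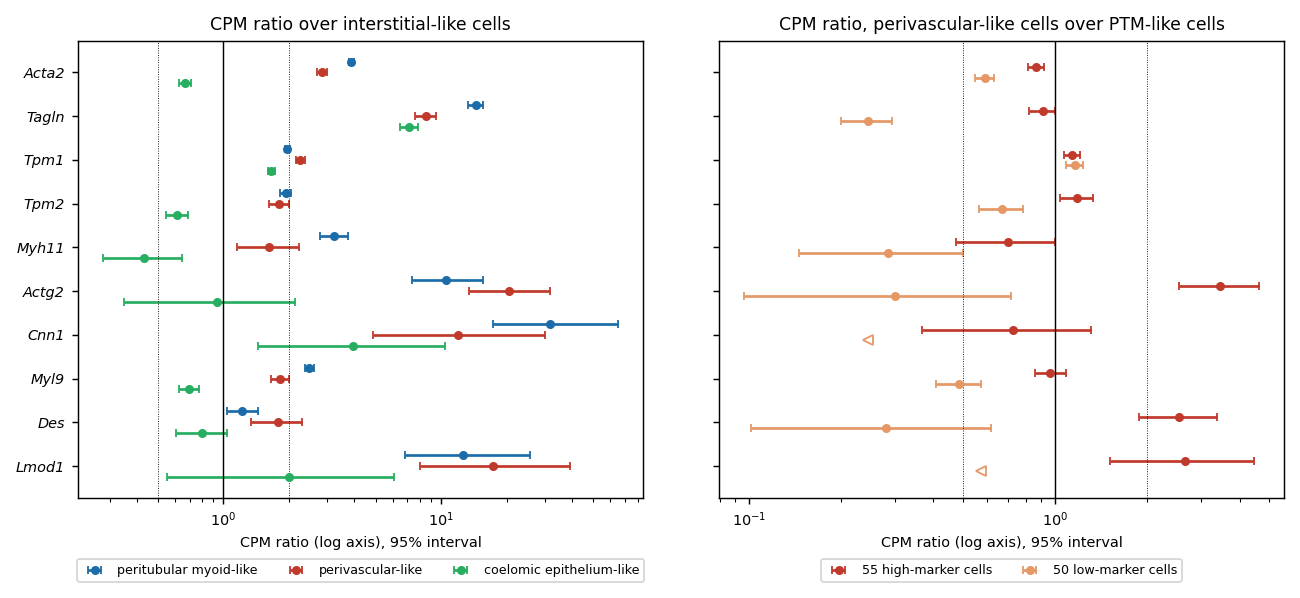
Ratios of CPM (horizontal axis, log scale) for each contractile gene (vertical axis), with exact 95% intervals; dotted lines mark 2-fold. Left, PTM-like, perivascular-like and coelomic epithelium-like over interstitial-like cells, with Cnn1 in PTM-like cells furthest right at 31.7. Right, high-marker and low-marker perivascular-like cells over PTM-like cells, where open triangles give the upper bound for genes with 0 UMIs.

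As a whole, perivascular-like cells had 6 of 10 members at least 2-fold above interstitial-like cells (Acta2, Tagln, Tpm1, Actg2, Cnn1 and Lmod1), where 6.10% of 12485 genes were and 10.2% were 2-fold lower, and the median log2 ratio was 1.34 against -0.04 over all genes. Against PTM-like cells 0 members were 2-fold higher (6.53% of 11799 genes) and 2 were 2-fold lower (8.52%), namely Myh11 at 0.50 (0.36 to 0.68) and Cnn1 at 0.38 (0.19 to 0.68). Actg2 lay just inside the limit at 1.93 (1.44 to 2.57). These counts rested on which cells the class held. At a coarser resolution they became 10 and 3, and with 2 times the doublet rate 1 member (Tagln) stayed 2-fold above interstitial-like cells. That doublet rate kept 20 of the 55 high-marker and 37 of the 50 low-marker cells. The perivascular-like class named at that rate held 93 cells, of which 53 were in the class of 105 cells. Over the whole library it kept 3628 cells, against 3820 at the main setting.

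Most contractile genes, but not Tpm1, had higher summed levels in the high-marker than in the low-marker cells. In the 55 high-marker cells all 10 members were at least 2-fold above interstitial-like cells, against 8.14% of genes, and 0 were lower, against 15.7%. The ratio was 3.35 (3.15 to 3.56) for Acta2, 13.1 (11.7 to 14.8) for Tagln and 36.4 (23.8 to 56.6) for Actg2. Against PTM-like cells, 3 members were 2-fold higher (9.08% of genes) and none 2-fold lower (13.4%). Actg2 was at 95.9 CPM in high-marker and 27.8 in PTM-like cells, a ratio of 3.44 (2.54 to 4.62). Des was at 91.2 and 36.0 CPM, a ratio of 2.54 (1.87 to 3.39), and Lmod1 at 29.4 (19 UMIs) and 11.1 CPM, a ratio of 2.65 (1.51 to 4.45). These calls rested on few cells: of the 105 perivascular-like cells, the 5 highest held 52 of 67 Actg2 UMIs (22 in 1 cell), 16 of 19 Lmod1 UMIs and all 12 Cnn1 UMIs, but 20 of 65 Des UMIs. The remaining 7 members lay between 0.70 (Myh11) and 1.18 (Tpm2) times the PTM-like level, with Acta2 at 0.87 (0.81 to 0.92) and Tagln at 0.91. Some of these levels also leaned on few cells. Of the 105 cells, the 5 highest for Tagln held 280 of its 564 UMIs, and the 5 highest for Myl9 held 173 of 473. Before thinning, Acta2 was found in 76.4% of high-marker and 94.0% of low-marker cells. The members at least 2-fold apart between high-marker and PTM-like cells were thus Actg2, Des and Lmod1, all of low count.

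The 50 low-marker cells had another profile. Tpm1 was as high as in the high-marker cells (1807 and 1775 CPM) and Acta2 stood at 1246 CPM, but Tagln was at 187.3, Des at 10.0 (6 UMIs) and Actg2 at 8.36 (5 UMIs). Cnn1 and Lmod1 had 0 UMIs, with an exact Poisson upper bound of 6.17 CPM. Against interstitial-like cells Acta2, Tagln, Tpm1 and Actg2 were at least 2-fold higher (5.72% of genes), although the interval of Actg2 included 1 (0.97 to 8.12). Des was lower at 0.34 (0.12 to 0.75), where 15.0% of genes were 2-fold lower, and for Cnn1 and Lmod1 both levels were under the limit of a count of 0. Against PTM-like cells 7 members were at least 2-fold lower, where 11.3% of genes were, and 0 were higher (5.48%), and Tagln was at 0.24 times (0.20 to 0.29) the PTM-like level.

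Coelomic epithelium-like cells shared Tagln and Tpm1 with the contractile classes, and had lower Acta2, Tpm2, Myh11 and Myl9 than interstitial-like cells. Tagln was 7.12 times (6.48 to 7.83) and Cnn1 3.92 times (1.44 to 10.4) the interstitial-like level, the latter on 9 UMIs, so 2 of 10 members were at least 2-fold higher, where 9.70% of 12729 genes were. Lmod1, on 5 UMIs, lay just under the limit, with an interval of 0.55 to 6.09. Tpm1 was 1.66 times the interstitial-like level. Myh11 was 2-fold lower at 0.43 (0.28 to 0.64), where 11.2% of genes were, and Acta2 (0.67), Tpm2 (0.61) and Myl9 (0.70) were lower by less than 2-fold. The median log2 ratio of the members was -0.19. The coelomic epithelium markers summed to 928.5 CPM in this class, against 2.27 in interstitial-like cells. Yet its interstitial markers summed to 4342 CPM, against 4460, and its PTM markers to 1662, against 1770.

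Tagln and Acta2, often read together as smooth muscle markers, stood in different proportion in each of the 4 classes. Tagln made up 50.9% (48.7 to 53.0, exact binomial) of the UMIs of the pair in coelomic epithelium-like cells, 26.6% in PTM-like, 22.6% in perivascular-like and 8.85% in interstitial-like cells. The perivascular-like value joined 27.6% (25.4 to 29.8) in the high-marker cells, whose interval overlapped that of PTM-like cells (26.0 to 27.3), and 13.1% (10.9 to 15.5) in the low-marker cells. These are shares of summed UMIs and not of a typical cell. Of the 105 perivascular-like cells, the 5 highest for Tagln held 49.6% of its UMIs, and the 5 highest for Acta2 held 27.9%. In an unnamed cluster led by Nts and Smoc2, 1 of 161 UMIs was of Tagln and 160 of Acta2, while Myl9 stood at 356.0 CPM. In another unnamed cluster of 29 cells, which expressed Pax8, Acta2 had 0 UMIs with Tagln at 56.2 and Myl9 at 246.8 CPM.

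**Figure D3:**
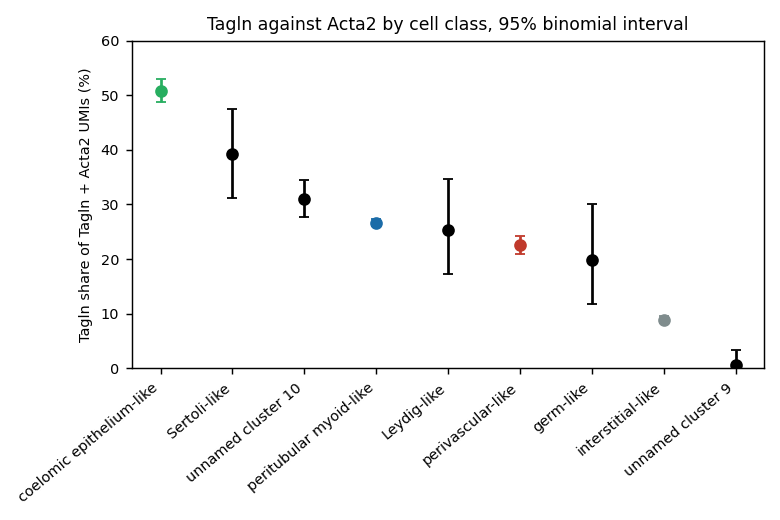
Share of Tagln in the UMIs of Tagln and Acta2 together (vertical axis, percent) by class (horizontal axis), with exact binomial 95% intervals. Of the 9 classes drawn, coelomic epithelium-like cells stand highest at 50.9% and the unnamed cluster 9, led by Nts, lowest at 0.62%.

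An unnamed cluster of 88 cells, with Emcn, Gdf10 and Foxp2 among its leading genes, had Lmod1 at 22.8 CPM (19 UMIs, 13.7 to 35.6). This interval overlapped that of the perivascular-like class (9.19 to 23.8) and that of the high-marker cells (29.4 CPM, 17.7 to 45.9). Tpm2 (401.5 CPM) and Des (56.3) were at the PTM-like or perivascular-like level in it, and Tagln stood at 276.9, whereas Myh11 was at 5.99 (5 UMIs), Cnn1 at 2.40 (2 UMIs) and Actg2 had 1 UMI. The cells were nearest to the interstitial markers (summed 6266 CPM), and 0 of 11 perivascular markers were found in 25% or more of them. The 4 cells highest for Lmod1 held 11 of its 19 UMIs, and 7 of 84 cells held a UMI of it after thinning. In the summed counts of this cluster Lmod1 thus stood beside low Myh11, Cnn1 and Actg2, on few cells.

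Detection in single cells was compared after each cell had been thinned to 5000 UMIs. Acta2 was found in 83.7% (80.1 to 87.0) of 467 PTM-like cells, 80.6% of perivascular-like, 68.3% of interstitial-like and 51.0% of coelomic epithelium-like cells, against 2.4% of germ-like, 3.4% of Sertoli-like and 6.9% of immune-like cells. Without thinning the share was 89.3% in PTM-like cells. Median depths before thinning were 36054 UMIs in germ-like and 14309.5 in Sertoli-like cells. Tagln was found in 64.0% of PTM-like, 62.8% of coelomic epithelium-like, 49.5% of perivascular-like and 13.3% of interstitial-like cells, against 0.8% of germ-like cells. The median number of members found in a cell was 5 in PTM-like, 4 in perivascular-like, 3 in interstitial-like and coelomic epithelium-like, and 0 in germ-like cells. At least 5 of the 10 were found in 50.5% of PTM-like, 34.0% of perivascular-like, 12.4% of coelomic epithelium-like and 11.4% of interstitial-like cells.

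The abundant members were found together in the same PTM-like cells. Tagln was found in 72.1% (67.4 to 76.5) of the 391 cells with an Acta2 UMI and in 22.4% (13.6 to 33.4) of the 76 without, and Myl9 in 82.6% and 32.9%. Over the 467 cells, which share 1 library, the Pearson correlation of log counts was 0.68 between Acta2 and Myl9, 0.67 with Tagln, 0.60 with Tpm2 and 0.47 with Tpm1. Between Acta2 and Des it was 0.11, and in perivascular-like cells -0.15, on sparse counts of Des. Myh11, found in 19.1% of thinned PTM-like cells against 16.5% for Des, had 0.44 with Acta2 in them. The perivascular-like class joined high-marker and low-marker cells. Before thinning, 76.4% of the former and 94.0% of the latter held an Acta2 UMI, and 56.4% and 10.0% a Des UMI. The part of this makeup in the value of -0.15 was not tested.

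Myh11, Actg2, Cnn1 and Lmod1 were each found in a minority of PTM-like cells, and so was Des. Before thinning, Myh11 was found in 32.4% of cells and Des in 33.7%. Actg2 was found in 14.4%, Cnn1 in 13.6% and Lmod1 in 9.6%. The 24 cells (of 478) with the most UMIs of a gene held 74.7% of 166 Cnn1 UMIs, 69.6% of 181 Actg2 UMIs, 69.4% of 72 Lmod1 UMIs and 47.0% of 460 Myh11 UMIs. For Des, whose total of 234 UMIs is near those of Cnn1 and Actg2 but not those of Lmod1 and Myh11, the 24 highest cells held 29.1%, and the highest cell had 5 UMIs, against 17 for Actg2 and 15 for Cnn1. The 24 highest cells held 25.5% of Acta2 and 17.5% of Tpm1 UMIs. The UMIs of Cnn1 and Actg2 were thus held by fewer cells than those of Des at a like total.

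**Figure D4:**
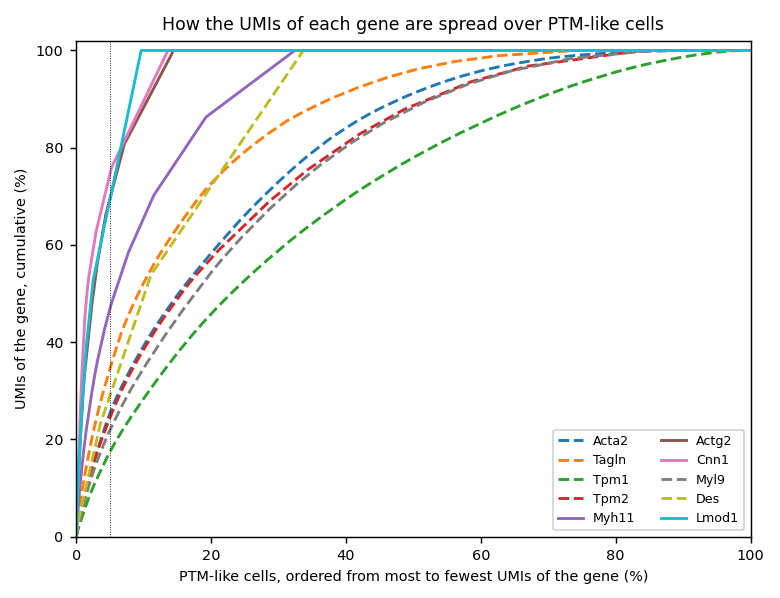
Cumulative share of the UMIs of each gene (vertical axis, percent) over the 478 PTM-like cells ordered from most to fewest UMIs of that gene (horizontal axis, percent of cells); solid lines are Myh11, Actg2, Cnn1 and Lmod1, and the dotted line marks 5% of cells. Cnn1 (166 UMIs) and Actg2 (181) rise left of Des (234), and Lmod1 has only 72 UMIs.

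After thinning, 72.8% of PTM-like cells held none of the 4 genes Myh11, Actg2, Cnn1 and Lmod1. Of the rest, 16.9% of all (79 cells) held 1 and 10.3% (48 cells) held 2 to 4. The 4 genes were grouped in this way after their values had been seen. Acta2 stood at 1335 CPM in the cells with none, 3089 in those with 1 and 5563 (5268 to 5869) in those with 2 to 4. Tagln stood at 448.8, 1051 and 2217 CPM, and Tpm2 at 261.8, 491.1 and 900.0, in the same order. Myl9 (374.7, 789.9 and 1088 CPM) and Tpm1 (1305, 1924 and 2708) went the same way. Des stood at 35.3, 43.0 and 41.7 CPM, with overlapping intervals. PTM-like cells with more of these 4 genes therefore also held more Acta2, Tagln, Tpm2, Myl9 and Tpm1, but not more Des beyond the interval.

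The cells with 2 to 4 of these genes did not hold more of the perivascular markers, whose 11 genes summed to 58.4 CPM in them and 72.9 in the cells with none. Sertoli markers summed to 62.2 and 85.8 CPM, and coelomic epithelium markers to 33.0 and 11.6. Their median depth before thinning was 14219.5 against 11601.5 UMIs, and 64.6% against 53.8% were called S or G2M; the part of depth and cycle in the grouping was not tested. Of the 467 PTM-like cells, 89 held Myh11, 40 held Actg2 and 37 held Cnn1. Cnn1 was found together with Myh11 in 23 cells and together with Actg2 in 10. Myh11 was found in more cells than Actg2, so these counts alone do not rank the overlaps. Whether either overlap exceeded that of unrelated detection was not tested.

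In perivascular-like cells Acta2, Tagln and Myl9 also rose with the number of the 4 genes held, in fewer cells. Of 103 cells, 9 held 2 to 4 of the 4 genes and 87 held none. Acta2 stood at 5933 CPM (5243 to 6689) in the former and 981.6 in the latter, Tagln at 2911 and 172.4, and Myl9 at 2156 and 183.9. The interval of Acta2 in these 9 cells overlapped that of the 48 PTM-like cells, while Myl9 was higher (2156, 1748 to 2630, against 1088, 959.6 to 1228). Perivascular markers summed to 3258 CPM in the 9 cells and 1395 in the 87, a rise that PTM-like cells did not have. The 50 low-marker cells held 0 UMIs of Cnn1 and Lmod1, 5 of Actg2 and 12 of Myh11 before thinning. The part of the class makeup in this pattern was not tested. Of 1312 interstitial-like cells, 5 held 2 to 4 of the genes.

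**Figure D5:**
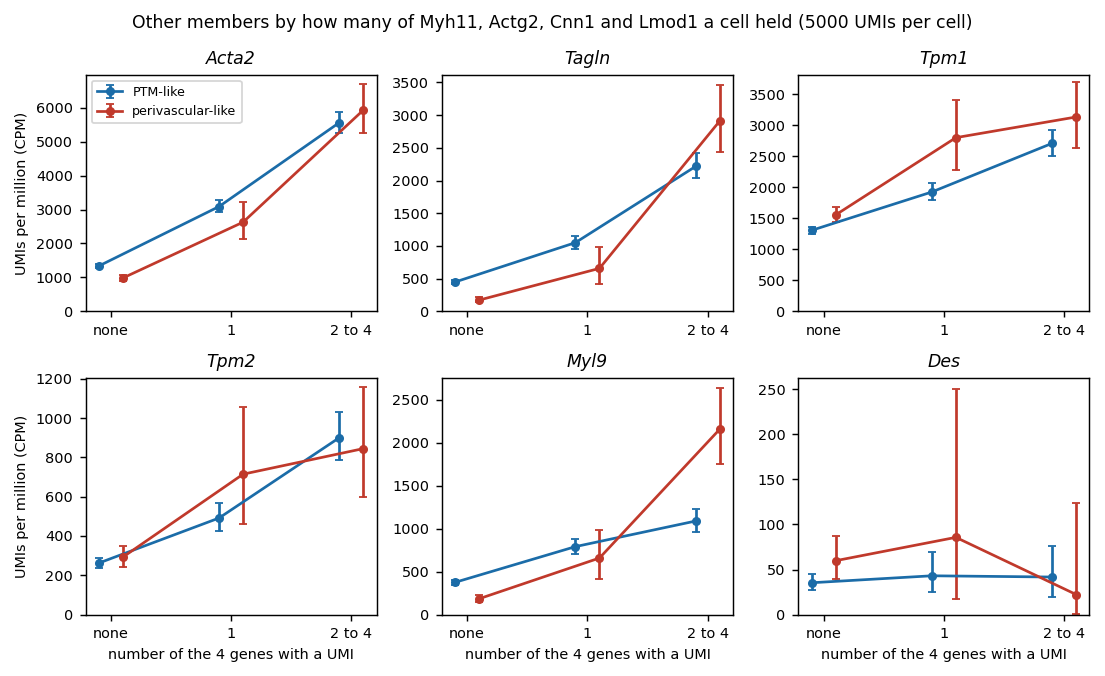
Level of 6 members (vertical axis, CPM after thinning to 5000 UMIs per cell) in PTM-like and perivascular-like cells that held none, 1, or 2 to 4 of Myh11, Actg2, Cnn1 and Lmod1 (horizontal axis), with exact Poisson 95% intervals. Acta2 goes from 1335 to 5563 in PTM-like cells, and Des stays between 35.3 and 43.0.

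Of 38 symbols in the list of other contractile genes, 36 were in the matrix, and 32 passed the minimum count between PTM-like and interstitial-like cells. Of these, 6 were at least 2-fold higher in PTM-like cells (5.82% of all genes) and 2 were lower (7.55%), with a median log2 ratio of 0.47. Myocd, the coactivator of serum response factor in smooth muscle, was at 36.4 CPM in PTM-like, 16.5 in coelomic epithelium-like, 4.82 in perivascular-like (6 UMIs) and 3.29 in interstitial-like cells. Its PTM-like to interstitial-like ratio was 11.1 (8.03 to 15.6). Myocd was 0.13 times (0.05 to 0.29) the PTM-like level in perivascular-like cells, where Acta2 was at 0.73 and Tagln at 0.59 times theirs. These values are of the class as a whole. Acta2 was at 0.87 and Tagln at 0.91 times the PTM-like level in high-marker cells, but at 0.59 and 0.24 in low-marker cells. The 6 UMIs of Myocd were not split between these cells.

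The other genes at least 2-fold higher in PTM-like cells were Hspb1 (59.0 against 16.1 CPM), Myh10, a non-muscle myosin heavy chain (222.3 against 91.4), Cnn2 (352.5 against 147.4), Ppp1r12b, a subunit of myosin phosphatase (34.0 against 14.2), and Tagln3 (11 UMIs). The lower ones were Synm (6.15 against 26.4 CPM) and Ppp1r14a, an inhibitor of myosin phosphatase. Ppp1r14a stood at 276.8 CPM in interstitial-like, 192.8 in perivascular-like, 29.5 in PTM-like and 15.1 in coelomic epithelium-like cells, an order unlike that of any member. In coelomic epithelium-like cells Hspb1 reached 152.1 CPM, 9.46 times (8.03 to 11.2) the interstitial-like level, and Myh10 reached 284.3. In perivascular-like cells Myh9 was 2.79 times (2.30 to 3.35) the interstitial-like level and Tagln2 2.38 times (2.03 to 2.78) the PTM-like level. Of the 32 genes, the perivascular-like class had 3 at least 2-fold above interstitial-like cells (6.10% of all genes) and 2 below (10.2%), and the coelomic epithelium-like class 4 above (9.70%) and 6 below (11.2%).

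Genes with the most similar pattern were sought over the 10 named classes among 11112 genes, by the Pearson correlation of log2(CPM + 5). Those nearest to Acta2 were Ptn (0.99), Gucy1a1 (0.98) and Col1a1 (0.98). Those nearest to Myh11 were Spry2, Purg and Pcdh8 (0.95 each), and those nearest to Des were Gucy1a1 (0.99), Mrvi1 (0.99) and Tead3 (0.98). A high correlation over 10 classes did not always go with a 2-fold difference between PTM-like and interstitial-like cells. Purg was at 28.3 CPM in the former and 24.2 in the latter, and Tead3 at 30.6 and 28.7. Pcdh8 was at 48.3 and 8.04 CPM, and Spry2 at 34.3 and 13.7. Among the members themselves, Des had a correlation of 0.98 with Acta2 over these classes, although the pair was nearly uncorrelated between cells of 1 class. All points share 1 library.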

How the data were processed

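Single cells of control testes were processed with the 10x Genomics Chromium 3 prime kit (v3). The values are raw UMI counts by gene and barcode, deposited by the authors without normalization after Cell Ranger alignment to an mm10 reference that also held YFP. The processing notes name Cell Ranger 3.0.2 and 3.1.0, while the methods name another version. The kept cells held 54773097 UMIs, between 2266 and 53807 per cell.

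Barcodes with at least 200 genes were scored for doublets by the share of artificial doublets (25% of the merged data) among the nearest 2% of neighbours, and 4.04% were removed, followed by cells beyond 3 median absolute deviations on UMIs, genes, mitochondrial or ribosomal-protein share. Clustering used Seurat 5.3.0 and sctransform 0.4.2 (R 4.3.3), regressing out the mitochondrial share and the scores of cell cycle phase, on 3000 variable genes, 30 components and a resolution of 0.8. The 26 contractile genes among the variable genes, all 10 members included, were left out. A cluster was named if its markers had a mean log2 ratio of at least 0.75 against all other cells (pseudocount 5 CPM), at least 3 were found in 25% of cells, and the leading genes did not go against it. Other clusters stayed unnamed. Within the stroma a cluster was PTM-like if the PTM list was above 0 and above the interstitial list. The endothelial, erythroid, immune, Leydig, germ and Sertoli lists named 1 cluster each, and the skeletal muscle and the rete or mesonephric lists none.

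Counting, ratios and thinning used Python 3.11.15, numpy 2.4.6, scipy 1.17.1 and pandas 2.3.3 (scikit-learn 1.9.0 for doublets). Ratios and 2-fold calls were tested on simulated counts with known ratios. Thinning was checked on the PTM-like cells, by comparing the thinned counts of the members with the number expected from depth. A gene was called at a 2-fold ratio of CPM with at least 10 UMIs in the 2 classes together, and medians of log2 ratios used a pseudocount of 1 CPM. No test was made. Named were the 10 members, up to 12 genes of the other contractile list by size of ratio, and for Acta2, Myh11 and Des the 3 genes of most similar pattern among those with at least 200 UMIs. The members and lists were chosen with earlier results of these data known, and the limits for naming clusters were set after the clusters were seen. Other filters, resolutions, normalizations, class assignments and folds were tried. Sequences came from RefSeq tables (GRCm38.p6). The mutant library was not analysed here.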

Additional observations from a re-analysis of the deposited data

Results flagged for a closer look

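The 372 barcodes with fewer than 200 genes, which entered no comparison, held members above the limit that a count of 0 allows (3 UMIs). Tpm1 had 19 UMIs in them (13.5 CPM), Myl9 5 and Tpm2 4, while Acta2 and Tagln had 3 each and the other 5 members 0. Tpm1 in these barcodes was below its level in every class of kept cells, the lowest of which was 60.1 CPM in germ-like cells.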

How the results depend on the processing

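Of the alternatives tried, the count of members at least 2-fold higher in PTM-like than in interstitial-like cells ranged from 6 to 9 around 7. The count for perivascular-like against interstitial-like cells (6) became 1 with 2 times the doublet rate, 10 at resolution 0.4, 3 with each cell classed by itself and 10 at a fold of 1.5. For perivascular-like against PTM-like cells (0) it became 1 without doublet removal, 3 at resolution 0.4, 1 with the mean of the CPM of each cell, 1 at a fold of 1.5 and 2 in G1 cells, the last chosen after the data were seen. At resolution 0.4 the log2 ratio of Cnn1 in this comparison reversed from -1.40 to 0.069. There the perivascular-like class held 55 cells, and the PTM-like class 823 in place of 478. The same 55 cells over the 478 PTM-like cells gave a Cnn1 ratio of 0.73 (0.37 to 1.30), below 1. For coelomic epithelium-like cells (2) the count became 4 at a fold of 1.5 and 1 with at least 100 UMIs. The other contractile genes (6) became 11 at a fold of 1.5. The share of PTM-like cells with an Acta2 UMI (83.7%) was 87.6% without the outlier filter, 80.0% at 3000 UMIs and 89.3% without thinning. Of 596 values of single members, 443 stayed within the counting interval, 152 moved and 1 reversed. Apart from the class makeup and the settings' own construction, the cause was not tested.

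No paired analysis was possible because there was 1 library. Genes with few UMIs (Cnn1, Lmod1, Actg2) had wide intervals, and the pooled testes give no spread.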
